A study of Cyprinus carpio with 6 samples.

Results

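The genes described here are the Sox and Pou transcription factor genes of common carp (Cyprinus carpio), taken as every gene whose symbol, in lower case, begins with sox or pou followed by a digit. The rule found 13 genes among the 40568 genes and assembled loci counted in the series, and 12 of them, 9 Sox and 3 Pou, are described. The annotation of the assembly used by the authors (ASM1834038v1) holds 21 such symbols, of which 8 had no row in any library. Carp is allotetraploid, and 24674 of the counted genes carry only a LOC number, so Sox and Pou copies without a symbol lie outside the rule.

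RNA-Seq was performed on whole embryos at the mid-blastula stage in 2 groups of 3 libraries. Embryos of the 14-day-aged group came from sperm held on ice in extender for 14 days, and embryos of the fresh group came from sperm on the day of stripping. Both groups derived from the same males and the oocytes of a single female, and no source used here ties a library to a male, so the spread between libraries may be partly technical. The authors report repeated hormone injections and stripping of males, and do not state whether both groups shared a stripping. Storage and any difference in stripping cannot be told apart. Total estimated counts were 14993459 to 15632387 per library with storage and 15102045 to 15185710 without it. The tissue label was checked on marker genes. Levels are in FPKM, which counts fragments per kilobase of gene, scaled to library size. Markers were sought by symbol, so a gene carried only under a LOC number would be missed. A marker that is not listed is therefore not shown to be silent. Of 12 early embryo marker symbols, buc, dazl, ddx4, zar1 and h1m were not listed. The others gave 8 counted genes, among them the maternal cyclins ccnb1 and ccna1. These 8 genes summed to 4155 to 4463 FPKM in the 14-day-aged group and 4185 to 4534 FPKM in the fresh group. They include pou5f3, itself among the genes described here, so the check is not fully independent of them. The muscle list gave 3 counted genes, and the blood, nervous system, and epidermis and gut lists gave 1 each, from 5 symbols per list. Each of these lists summed to at most 1.37 FPKM in any library, and elavl3, elavl4 and gfap were not listed. These sums thus rest on few genes. Of 9 sperm and testis marker symbols, 4 were listed, and tekt1, odf3, prm1, tnp1 and tssk6 were not. The listed ones summed to 10.6 to 11.25 FPKM in the 14-day-aged group and 12.1 to 13.7 FPKM in the fresh group. Nearly all of this came from the single gene spata18. The groups did not overlap for these sums or for spata18, and did not for 8.56% of all tested genes. The other listed markers, dnah9, tekt2 and tekt3, were at 0.25 FPKM or less in every library. The part of sperm RNA in any result was not tested.

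Sox proteins bind DNA through an HMG box, and Pou proteins through a bipartite POU domain. In zebrafish, the maternal factors Pou5f3, the SoxB1 protein Sox19b and Nanog bind regulatory regions before the genome is switched on and help to start zygotic transcription at the blastula stage. Most other Sox and Pou genes are known for later roles, such as SoxF genes in endoderm and vessels, SoxE genes in neural crest and cartilage, and class IV Pou genes in sensory neurons. The letters of the Sox groups and the numerals of the Pou classes name branches of these families by sequence.

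The 12 genes fell into a very abundant set and a set near the limit of detection, with no gene between them. pou5f3, pou6f1 and sox19b stood at 34.6 FPKM or more in every library. None of the 9 other genes exceeded 0.57 FPKM in any library. By mean FPKM over the 6 libraries, pou5f3 ranked 128 of the 40568 genes and loci, pou6f1 ranked 772 and sox19b ranked 2560. Together the 12 genes took 0.108 to 0.118% of all counts, and pou5f3 alone took 61.6 to 66.8% of the counts of the 12.

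**Figure D1:**
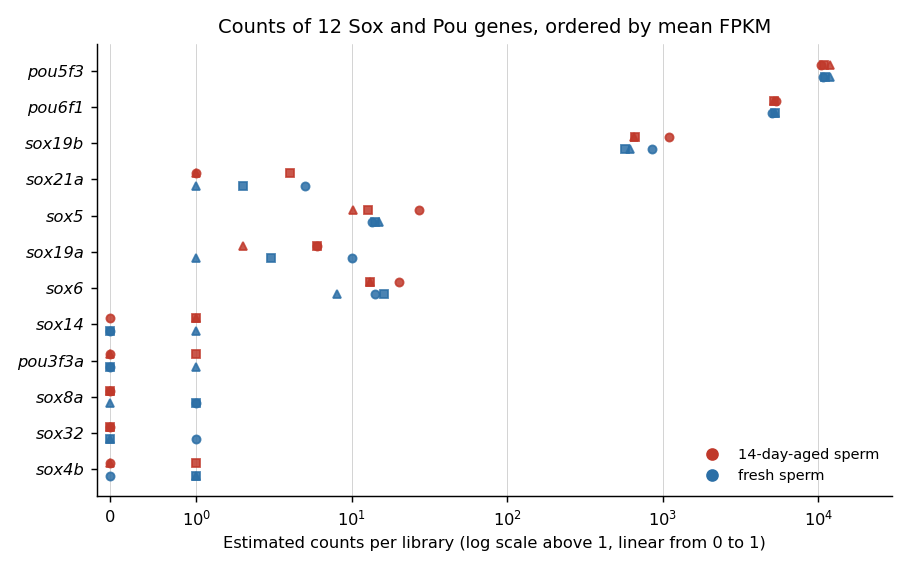
Estimated counts (horizontal axis, logarithmic above 1) of 12 Sox and Pou genes, 1 symbol per library, with embryos from 14-day-aged sperm in red above embryos from fresh sperm in blue, and circles, squares and triangles for replicates 1, 2 and 3. pou5f3, pou6f1 and sox19b lie at 571 counts or more, and every other gene lies at 27.1 counts or fewer.

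The Pou class V gene pou5f3 is the fish relative of mammalian Oct4 and lies on chromosome B21 from 7745205 to 7748550. It stood at 306, 327 and 362 FPKM in the 14-day-aged libraries, against 324, 334 and 360 FPKM in the fresh libraries. The groups overlapped, and replicate 3 was the highest library of each. Means were 331 ± 28.1 FPKM with storage and 340 ± 18.7 FPKM without it (SD, n = 3 each). The log2 fold change of 14-day-aged over fresh was -0.045 (standard error of 0.0965 and edgeR adjusted p = 1.0). Its sign turned without replicate 1 of the 14-day-aged group (0.024) and without replicate 3 of the fresh group (0.021). All 6 counts of pou5f3 were whole numbers, 10361 to 11890 per library, as they are where no read is divided among loci.

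The class VI gene pou6f1, known in mammals mainly from the nervous system, was the second most abundant member. It lies on chromosome B23 from 20028584 to 20050989 and has 5 annotated transcripts. Levels were 103, 102 and 105 FPKM in the 14-day-aged libraries, against 101, 106 and 105 FPKM in the fresh libraries. This was the most even of the abundant members, with coefficients of variation of 1.07% and 2.66% in the 14-day-aged and fresh groups. The log2 fold change was -0.019 (standard error of 0.054 and edgeR adjusted p = 1.0), and 0.0083 without replicate 3 of the fresh group. pou5f3 stood 2.97 to 3.46 times above pou6f1 in FPKM within a library. The counts of pou6f1 were also whole in all 6 libraries.

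sox19b, the SoxB1 gene of the maternal trio in zebrafish, lies on chromosome B7 from 15430370 to 15432370. It stood at 64.3, 39.5 and 39.8 FPKM in the 14-day-aged libraries, against 51.4, 34.6 and 37.1 FPKM in the fresh libraries. The groups overlapped, and replicate 1 of each group stood above the other 4 libraries. This order held for sox19b alone of the 5 tested Sox and Pou genes, and for 8.92% of all 27342 tested genes. Means were 47.9 ± 14.2 FPKM with storage and 41.05 ± 9.05 FPKM without it (SD, n = 3 each). The log2 fold change was 0.21 (standard error of 0.218 and edgeR adjusted p = 1.0), and -0.042 without replicate 1 of the 14-day-aged group. It made up 97.6 to 98.9% of the FPKM of the 9 Sox genes.

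**Figure D2:**
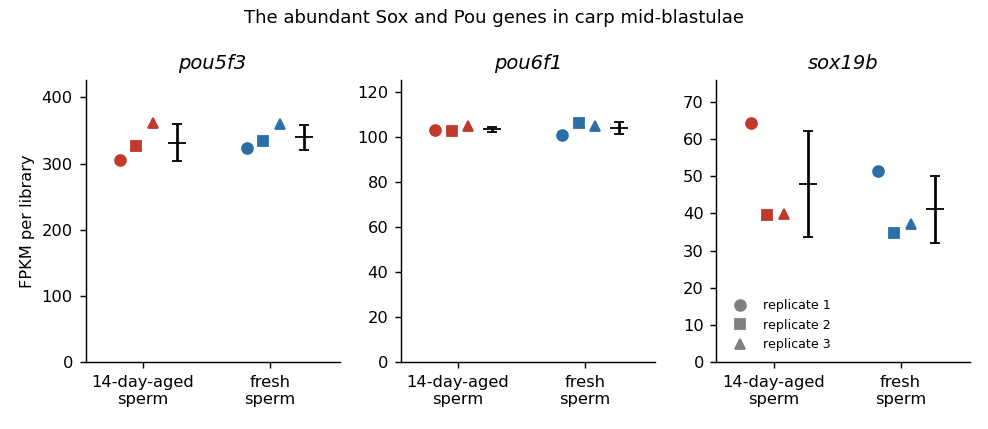
FPKM per library of pou5f3, pou6f1 and sox19b, with embryos from 14-day-aged sperm (red) left of embryos from fresh sperm (blue), symbols by replicate number and the mean ± SD in black beside them. The groups overlap in each panel, pou6f1 lies between 101 and 106 FPKM throughout, and replicate 1 of each group carries the highest sox19b levels.

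The counts of sox19b were not whole in any library, unlike those of pou5f3 and pou6f1. The program named in the deposited files, RSEM, divides a read among the loci it fits. A search over all counted loci found 1 locus, XLOC_028804, whose counts added up with those of sox19b to whole numbers (within 0.02) in all 6 libraries. XLOC_028804 was assembled by the authors, has no gene symbol in the files and has a length of 2616 to 2654 bases, against 1369 bases for sox19b. It was given 3050, 3268 and 2814 counts in the 14-day-aged libraries, against 3019, 3156 and 2825 counts in the fresh libraries, more than sox19b in each. Its level was 79.0 to 90.0 FPKM.

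The share of the summed counts given to sox19b was 26.3, 16.8 and 18.9% in the 14-day-aged libraries, against 22.1, 15.3 and 17.9% in the fresh libraries. Replicate 1 of each group again had the highest share. After TMM scaling (edgeR's correction of library size), the sum of both loci was 260, 255 and 237 CPM (counts scaled to library size) in the 14-day-aged libraries, against 254, 244 and 235 CPM in the fresh libraries, and replicate 1 was again the highest of each group. When the counts of both loci were summed, which was tried after seeing the data, the log2 fold change was 0.037 (standard error of 0.057 and edgeR adjusted p = 1.0). Since XLOC_028804 holds most of the sum, this value does not show whether reads moved between the loci. In CPM, sox19b averaged 52.1 ± 14.3 in the 14-day-aged group and 45.1 ± 9.72 in the fresh group, and the sum averaged 251 ± 12.2 and 244 ± 9.54 (SD, n = 3 each). The part of the division of reads in the level of sox19b was not tested.

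**Figure D3:**
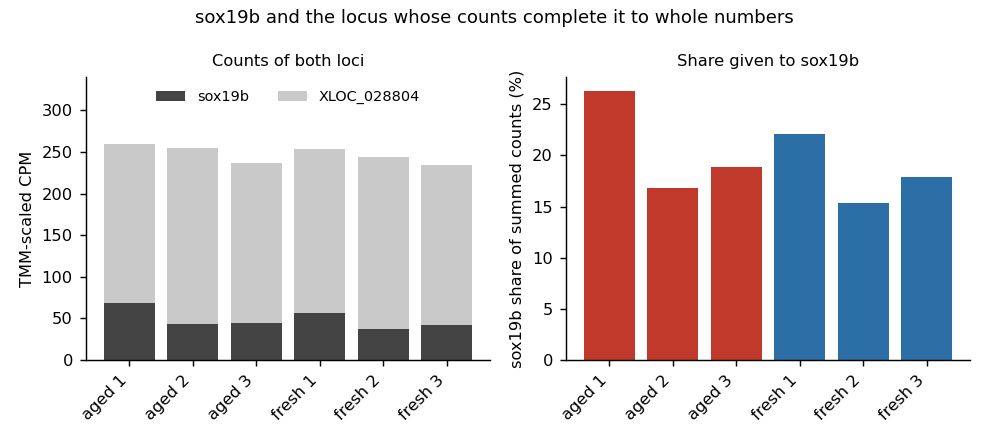
Left, TMM-scaled CPM of XLOC_028804 (light) stacked on sox19b (dark) per library. Right, the percent of their summed counts given to sox19b, with 14-day-aged libraries in red left of fresh libraries in blue. The sum stays between 235 and 260 CPM, and the sox19b share runs from 15.3 to 26.3%, highest in replicate 1 of each group.

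The SoxD genes sox5 and sox6, whose proteins lack an activation domain and act in cartilage and neurons in mammals, were counted in every library, near the lower limit of the test. sox5, on chromosome B4 from 12993039 to 13198218, had 27.1, 12.8 and 10.2 counts in the 14-day-aged libraries, against 13.4, 14.2 and 15 counts in the fresh libraries. Its high value was replicate 1 of the 14-day-aged group, and its counts were not whole in 5 libraries, with no single locus that completed them. The log2 fold change was 0.21 (standard error of 0.397 and edgeR adjusted p = 1.0), and -0.28 without that library. sox6, on chromosome B7 from 15827031 to 15977722, had 20, 13 and 13 counts in the 14-day-aged libraries, against 14, 16 and 8 counts in the fresh libraries. The groups of sox6 overlapped, with a log2 fold change of 0.25 (standard error of 0.352 and edgeR adjusted p = 1.0). The deposited gene length, which averages over the transcripts that RSEM assigned reads to, ranged from 6236 to 6995 bases for sox5 with 9 annotated transcripts and from 7022 to 8305 bases for sox6 with 18.

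Of the 5 tested genes, 0 were called higher or lower at an adjusted p under 0.05 in edgeR, where 0.0146% of all tested genes were called, and DESeq2 also called 0. At an unadjusted p under 0.05 the count was 0 in both tools, where 3.36% of all tested genes passed in edgeR. The groups overlapped for all 5, and did not for 8.56% of all tested genes. Without replicate 1 of the 14-day-aged group 1 gene did not overlap, sox5, against 19.4% of all tested genes in that split. Without replicate 1 of the fresh group it was sox19b, against 16.5%. The fold changes were above 0 for 3 of the 5 genes, and for 13588 of all 27342 tested genes. The median of the 5 on the log2 scale was 0.21, which is the value of sox19b, against -0.00090 over all tested genes. Of the 3 genes above 0, sox5 and sox6 had 27.1 counts or fewer per library. The 2 genes of highest level had the smallest standard errors and the fold changes closest to 0. In whole embryos, fewer cells of a type and less RNA per cell cannot be told apart.

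**Figure D4:**
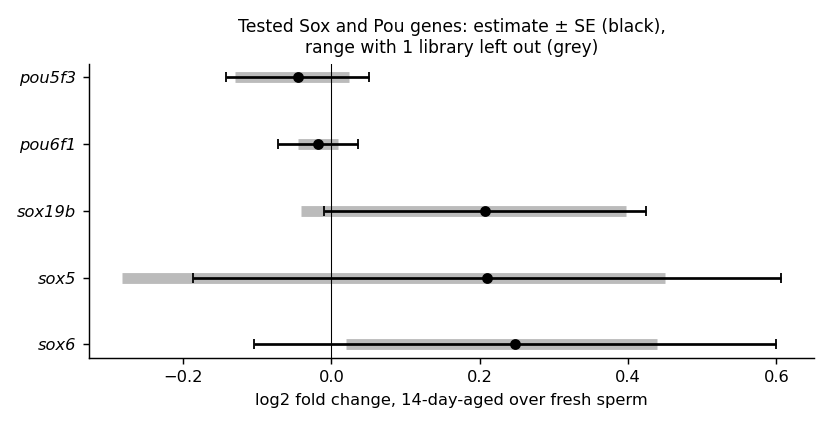
Log2 fold change of 14-day-aged over fresh for the 5 tested genes (black point, ± standard error from edgeR) and the range when a library is left out (grey bar). Values for pou5f3 and pou6f1 lie near 0, and the grey bars of pou5f3, pou6f1, sox19b and sox5 cross 0. The bar of sox6 runs from 0.020 to 0.44.

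The 7 members too low to test had 1 to 28 counts over all libraries and at most 10 in any. sox19a, the other SoxB1 member and an early neural gene in zebrafish, had 6, 6 and 2 counts in the 14-day-aged libraries, against 10, 3 and 1 counts in the fresh libraries. The SoxB2 gene sox21a, from a group of repressors in neural progenitors, had 1, 4 and 1 counts with storage and 5, 2 and 1 counts without it. Both were listed in all 6 libraries, and their groups overlapped. In mean FPKM over all libraries, sox19a (0.157) and sox21a (0.267) stood level with or above the tested genes sox5 (0.162) and sox6 (0.120). The test's limit works on counts, which favours long genes.

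The remaining low members never exceeded 1 count in a library. The SoxB2 gene sox14 was counted in 2 libraries of the 14-day-aged group and 1 of the fresh group, and the SoxC gene sox4b in 1 and 2 libraries. The class III gene pou3f3a, known from the brain, was counted in 1 library of each group. The SoxE gene sox8a had 1 count in 2 fresh libraries, and sox32, which specifies endoderm in zebrafish, had 1 count in 1 fresh library. In these low genes 1 count was worth 0.02 to 0.12 FPKM, so a difference between the groups was not detectable at this depth. Over the 7 genes the summed counts were 24 with storage and 29 without it.

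The 8 annotated symbols with no row were sox9a, sox12, sox17, pou1f1, pou3f1, pou4f1, pou4f2 and pou4f3. They include all 3 annotated class IV Pou genes, which act in retinal and other sensory neurons, and the class I gene pou1f1 of the pituitary. The annotated genes of class V (1 gene) and group D (2 genes) all had enough counts for the test. In group B1, 1 of 2 symbols was tested, and in groups B2, C, E and F and class III none was. sox17, which acts after sox32 in zebrafish endoderm, lies 33499 bases from sox32 on chromosome B7, and together these neighbours had 1 count.

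Of the 20 annotated symbols described, 25.0% were tested, against 55.5% of the 9749 protein-coding genes that carry a symbol other than a LOC number. The tested genes were longer on the genome, with a median annotated span of 22406 bases, against 2311 bases for those too low to test and 3138 bases for those with no row. The span did not order the levels, since sox19b covers 2001 bases and pou5f3 covers 3346 bases, while sox6 covers 150692 bases and sox5 covers 205180 bases, and both were near the limit. Of the 19 symbols placed on a chromosome of either carp subgenome, 16 were on B chromosomes, as were 67.0% of all placed protein-coding genes with such a symbol. sox19b and sox6 lie 394660 bases apart on B7. Within 100000 bases, 30 of 53 protein-coding neighbours of the tested symbols were themselves tested, against 27 of 48 for the symbols too low to test and 23 of 43 for those with no row. These windows can share genes, so the shares are a description.

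A list of early embryo regulators, with partners and early targets of Pou5f3 and Sox19b, gave the surrounding levels. Of its 50 symbols, 28 genes were counted and 17 tested. Of these 17, 0 were called higher and 0 lower at an adjusted p under 0.05 in edgeR, and 0 in DESeq2. Without adjustment, 1 gene was lower and 0 were higher at p under 0.05 (3.36% of all tested genes passed). The groups did not overlap for 3 of the 17, against 8.56% of all tested genes, and the median log2 fold change was -0.023. Of the 3, smarca4a and tdgf1 were lower in the 14-day-aged group, and mycn, at 13 to 22 counts per library, was higher. nanog, the homeobox partner of Pou5f3 and Sox19b, was above both, at 596 ± 47.0 FPKM in the 14-day-aged group and 601 ± 22.5 FPKM in the fresh group (SD, n = 3 each). On the log2 scale nanog differed by -0.023 (standard error of 0.077 and edgeR adjusted p = 1.0). In each library the order by FPKM was nanog, pou5f3, sox19b, and pou5f3 exceeded sox19b 4.76- to 9.71-fold. That ratio carries the division of sox19b reads described above.

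Among the other regulators of highest level, hmga1a, a chromatin protein of early embryos, averaged 150 ± 3.90 FPKM in the 14-day-aged group and 151 ± 6.98 FPKM in the fresh group. The SWI/SNF ATPase gene smarca4a stood at 101, 101 and 98.0 FPKM in the 14-day-aged libraries, against 108, 109 and 108 FPKM in the fresh libraries. Its groups did not overlap, and it was the regulator with an unadjusted p under 0.05 (0.0337), with a log2 fold change of -0.13 (standard error of 0.049 and edgeR adjusted p = 1.0). Its unadjusted p in edgeR was 0.0552 to 0.0797 without replicate 1 or 2 of the 14-day-aged group or replicate 2 or 3 of the fresh group. Under the other edgeR alternatives it was 0.00586 with a block on replicate number and 0.0313 to 0.0485 elsewhere. For the same gene limma gave 0.0869 on log2(FPKM + 1) and 0.113 on log2(FPKM + 0.1), and DESeq2 gave 0.000384. znf281b, a zinc finger gene, averaged 50.9 ± 4.96 FPKM with storage and 50.1 ± 3.62 FPKM without it, and max, the partner of Myc proteins, 32.5 ± 4.29 and 33.6 ± 3.44 FPKM in the 14-day-aged and fresh groups. The Nodal coreceptor gene tdgf1 averaged 31.4 ± 0.389 FPKM in the 14-day-aged group and 32.7 ± 0.247 FPKM in the fresh group, and the Nodal effector foxh1 16.8 ± 1.05 and 17.0 ± 0.320 FPKM. The T-box gene eomesb was too low to test, at 0.10 to 0.34 FPKM, and klf17 had no row under that symbol.

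**Figure D5:**
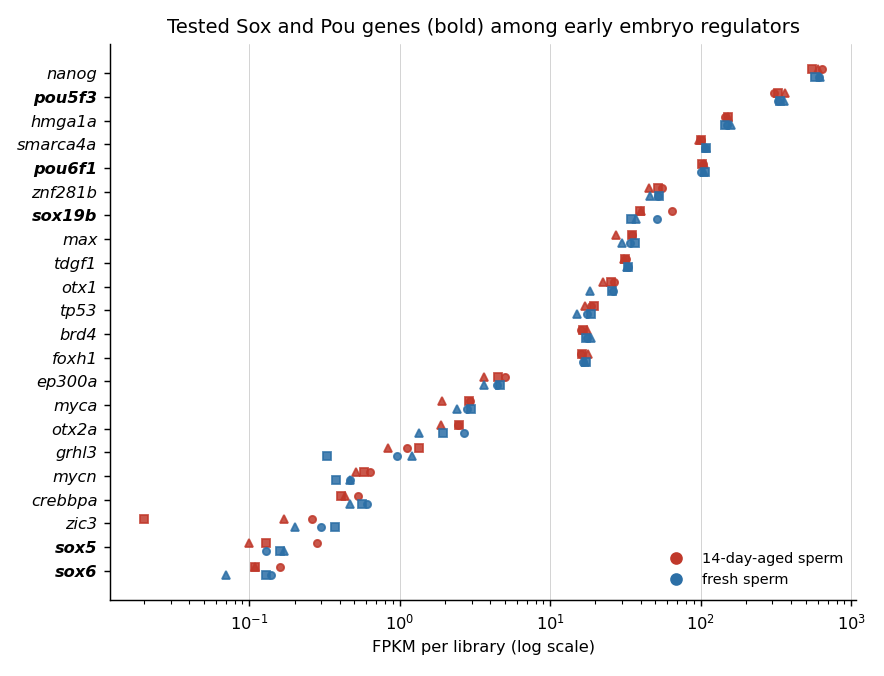
FPKM per library (logarithmic axis) of the 5 tested Sox and Pou genes (bold) and the 17 tested early embryo regulators, ordered by mean, with embryos from 14-day-aged sperm in red above embryos from fresh sperm in blue. nanog and pou5f3 are highest, pou6f1 lies beside smarca4a near 100 FPKM, and sox5 and sox6 lie at 0.28 FPKM or less.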

How the data were processed

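DNBSEQ reads of oligo(dT)-enriched mRNA were mapped by the authors with HISAT2. StringTie and Cuffmerge gave the merged transcripts, against which Bowtie2 aligned the reads (versions are not given in the sources used here). From these alignments the authors made and deposited, per library, an estimated count, an FPKM value and a length for each gene, in files named for RSEM. Genes without a count are not listed and were read as 0. The authors' own comparison table, with p-values and fold changes of selected genes, and 18 other per-library columns were not used.

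Estimated counts were rounded. All genes were fitted with edgeR 4.0.16 in R 4.3.3 (TMM, filterByExpr, quasi-likelihood test, no covariate), and p-values of the 27342 tested genes were adjusted by Benjamini-Hochberg (threshold 0.05). The standard error is the log2 fold change over the square root of F. The fit was tested on simulated data with the same dispersion for all genes and changes larger than those of the members. That test therefore does not show how small a change the fit would find in them. Levels are given in FPKM. A p-value sets the difference between the groups against the spread between these libraries, which derive from a single female and are not tied to males. DESeq2 1.42.0, limma 3.58.1, other scalings, filters and a replicate block, and each library left out, were alternatives. Every tested member reported is named, with full values above 1 FPKM, and members, lists and the rule for naming genes were chosen with earlier results of these data known. Of the early regulators, those called were to be named, otherwise the 6 of highest mean FPKM, with nanog, klf17, foxh1 and eomes where counted. The gene mycn is named in addition, because its groups did not overlap. Of the 13 members, 1 is not reported here and is left out of every count. All 13 members matched the reference table by symbol, and the coordinates come from it.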

Additional observations from a re-analysis of the deposited data

How the results depend on the processing

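No Sox or Pou gene and no early regulator was called under any of the 13 alternatives fitted, which replaced edgeR by DESeq2 or by limma on log2(FPKM + 1) or log2(FPKM + 0.1), TMM by RLE size factors, or the filter, added the replicate block, or left out a library. The number of detected members depends on the definition. It was 5 by the filter of the test, 4 with at least 10 counts in every library (without sox6), 12 with any count and 3 at a mean of 1 FPKM. With a library left out, 0 to 1 members did not overlap between the groups (sox5 without replicate 1 of the 14-day-aged group, and sox19b without replicate 1 of the fresh group), against 15.8 to 19.9% of all tested genes in these splits. Over these left-out libraries the log2 fold change ran from -0.13 to 0.024 for pou5f3, from -0.045 to 0.0083 for pou6f1, from -0.042 to 0.40 for sox19b, from -0.28 to 0.45 for sox5 and from 0.020 to 0.44 for sox6. Deviations of libraries with equal replicate numbers correlated at -0.0024, 0.038 and 0.089 over all 27342 tested genes. Unequal numbers were not compared, so these values do not decide whether the libraries are paired. With the replicate block 0 members were called and 1 had an unadjusted p under 0.05 in edgeR, sox19b, with a log2 fold change of 0.20, where 5.74% of all tested genes passed. For the early regulators the block gave 0 called and 2 of 17 at an unadjusted p under 0.05, beside the same 5.74%. Their count at an unadjusted p under 0.05 was 1 without a block, and 0 to 1 with a library left out. Read depth limits the 9 genes below 0.6 FPKM.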
